A study of Mus musculus with 18 samples.

Results

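Proteasome genes were taken as every symbol of the deposited expression table that starts with Psma, Psmb, Psmc, Psmd, Psme, Psmf or Psmg followed by a number, which gave 50 of the 24369 symbols listed. By their known roles they were placed in 8 classes. The 20S core is represented by 7 alpha ring genes (*Psma1* to *Psma7*) and 7 beta ring genes (*Psmb1* to *Psmb7*), and the 19S regulatory particle by 6 ATPases (*Psmc1* to *Psmc6*) and 11 non-ATPase subunits. These 31 genes are called constitutive subunits below. The other classes are 5 inducible or tissue-specific core subunits (*Psma8* and *Psmb8* to *Psmb11*), 6 activator or inhibitor genes, 7 assembly factors, and *Psmc3ip*, a meiotic recombination factor that matches by its name only. In each experiment 48 of the 50 genes passed edgeR's filter on low counts and were tested, and *Psmb8* and *Psme2b* did not pass.

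The proteasome degrades proteins that carry ubiquitin chains. Its 20S core is a barrel of stacked alpha and beta rings, with the peptidase sites on *Psmb6*, *Psmb7* and *Psmb5*, and the 19S particle binds the chain, removes it and threads the substrate into the core. Interferon and immune cells replace the catalytic subunits by *Psmb9*, *Psmb10* and *Psmb8*, which form the immunoproteasome. Subunit genes are usually transcribed together, and the factor *Nfe2l1* is known to raise them when the proteasome is inhibited. mTORC1, which *Nprl2* (a Gator1 subunit) and *Tsc2* restrain, is a regulator of growth that has been linked to proteasome gene expression and to protein breakdown.

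The study asked how naive pluripotency is maintained and dissolved in mESCs. All cells were E14 mESCs of the genotype Rex1GFPd2-Cas9, that is, with a GFP reporter at *Rex1* (*Zfp42* in the files) and a Cas9 transgene. One experiment followed these cells without further mutation before differentiation (day 0) and at days 1, 2 and 3 after inhibitors and LIF were withdrawn, with 3 libraries per day. The other used cells sorted for GFP in SL (serum and LIF), which were wild-type for both targets, *Nprl2* KO (Nprl2-/-) or *Tsc2* KO (Tsc2-/-), with 2 libraries per genotype. KO lines were grown from picked colonies in which guide pairs had removed 1 exon from both alleles, and the labels do not say how many clones the libraries represent or whether libraries came from separate cultures, so that p-values measure the spread between these libraries, which may be technical.

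Each library held between 8610357 and 15305054 estimated counts. Values below are CPM (counts scaled to library size with TMM factors) for comparing 1 gene between libraries, and TPM (also divided by transcript length) for comparing genes. A log2 fold change from edgeR is given with ± its SE. In the KO libraries *Nprl2* was at 5.96 and 6.50 CPM against 11.7 and 12.6 in wild-type, and *Tsc2* was at 63.7 and 67.3 CPM against 152 and 156. The log2 fold changes were -0.96 ± 0.18 (adjusted p = 0.00916) and -1.23 ± 0.08 (adjusted p = 1.2e-06), and values summed per gene do not separate the deleted exon from the rest of the transcript. The 8 markers of embryonic stem cells summed to between 5931 and 6423 CPM at day 0 and to between 898 and 1121 at day 3, and in GFP+ cells to 3413 to 3461 in wild-type, 2779 to 3024 in the *Nprl2* KO and 4859 to 4975 in the *Tsc2* KO. Markers of feeder fibroblasts, on which the study grew mESCs in SL, summed to between 14.6 and 42.9 CPM in the time course. In GFP+ cells they summed to 249 to 348 CPM in wild-type, 263 to 277 in the *Nprl2* KO and 300.4 and 73.7 in the *Tsc2* KO, where library 2 stood apart, with 1 of the 8 markers (*Lum*) at 3 counts or fewer throughout. Endoderm markers summed to between 5.11 and 24.3 CPM across all 18 libraries. These sums hide opposite changes of single markers between days 3 and 0 (edgeR, adjusted p under 0.05). Of 6 feeder markers tested 3 were higher and 3 lower, and of 6 endoderm markers 1 was higher and 5 lower. Over all genes tested 34.9% were higher and 35.8% lower.

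The promoters of proteasome genes are shown first because these genes often rose and fell together. RefSeq windows (GRCm38.p6) from 250 bases before to 50 bases after the transcription start were found for 42 of the 50 genes, 45 windows in all. They were searched on both strands for TGACNNNGC, a core of the antioxidant response element that NFE2L1 binds, for CCAAT, the NF-Y box, and for CACGTG, the E-box. TGACNNNGC was in 6 of the 45 windows (13.33%) and in 12.39% of all 32851 windows of the same length. CCAAT was in 15 windows (33.33%, against 37.41% of all) and CACGTG in 4 (8.889%, against 7.15%), so no motif was much more frequent here than among promoters at large. Of the 6 genes with the first motif, 4 held it within 50 bases of the start, 2 of them genes of catalytic subunits. These 4 are printed from 90 bases before to 50 after the start, 5′ to 3′ on the gene's strand, with the match in capitals (in *Psme4* it lies on the other strand). None of the matches overlapped either of the other motifs.
Psmb5, chr14:54617946-54618085, minus strand: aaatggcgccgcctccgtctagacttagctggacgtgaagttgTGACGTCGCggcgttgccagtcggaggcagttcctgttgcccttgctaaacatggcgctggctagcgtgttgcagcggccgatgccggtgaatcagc
Psmb6, chr11:70525267-70525406, plus strand: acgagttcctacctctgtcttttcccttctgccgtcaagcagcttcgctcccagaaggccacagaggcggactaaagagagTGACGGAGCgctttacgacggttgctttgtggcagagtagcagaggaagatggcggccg
Psmd9, chr5:123228100-123228239, plus strand: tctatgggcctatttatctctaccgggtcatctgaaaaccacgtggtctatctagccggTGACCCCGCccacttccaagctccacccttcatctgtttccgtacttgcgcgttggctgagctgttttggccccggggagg
Psme4, chr11:30771685-30771824, plus strand: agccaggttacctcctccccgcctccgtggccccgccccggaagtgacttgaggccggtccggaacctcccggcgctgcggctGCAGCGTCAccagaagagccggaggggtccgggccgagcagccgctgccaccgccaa
The match begins 47 bases before the start in *Psmb5*, 9 in *Psmb6*, 31 in *Psmd9* and 7 in *Psme4*, and *Psmd9* also has a CACGTG upstream of it. As described below, *Psmb5*, *Psmb6* and *Psme4* rose at day 1 and *Psmd9* did not pass the test in any comparison. The other 2 genes with the motif are *Psmc6* and *Psmd12*, with matches 227 and 247 bases before the start. *Psmd12* rose at day 1 and *Psmc6* did not pass there. Of the 31 constitutive genes 24 rose at day 1, and of the 25 with a window 4 carried the motif. A link between motif and rise was not tested. No window was at hand for *Psma8*, *Psmb1*, *Psmb2*, *Psmb7*, *Psmc3*, *Psmd3*, *Psmd7* and *Psmg2*.

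Constitutive subunits were abundant and close to each other in level. In the time course their 31 genes together held 0.972% ± 0.0334 of all TPM at day 0, 1.10% ± 0.0181 at day 1, 0.967% ± 0.0186 at day 2 and 0.973% ± 0.0256 at day 3 (SD, n = 3). Within a library the highest of the 31 exceeded the lowest by between 3.02 and 3.66 times. *Psmb3* (a beta ring subunit without peptidase activity) had the highest mean in the beta ring at 565 TPM and *Psmb2* the lowest at 309. In the alpha ring the means ran from 459 TPM (*Psma7*) to 281 (*Psma1*), among the ATPases from 369 (*Psmc5*) to 184 (*Psmc2*), and among the non-ATPase subunits from 469 (*Psmd8*) to 184 (*Psmd13*). The core genes were thus on the whole above the genes of the 19S particle, with the ranges of the classes overlapping. In GFP+ cells, which were processed as a separate experiment, *Psmb3* (820.2 TPM), *Psmc5* (498), *Psmd8* (433) and *Psma2* (514) had the highest mean of their class, and *Psmb2* (375), *Psmc1* (209), *Psmd13* (211) and *Psma1* (324) the lowest.

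The accessory genes lay below most constitutive ones, although *Psme3* exceeded *Psmc2* and *Psmd13* (both at 184 TPM). Of the activators, *Psme3* (the nuclear activator PA28 gamma) had a mean of 203 TPM in the time course, *Psme4* (PA200) 134, *Psme1* and *Psme2* (the interferon-responsive PA28 alpha and beta) 108 and 104.0, and the inhibitor *Psmf1* (PI31) 26.4. *Psme2b* was at 0 to 8 counts per library, and because it is a close copy of *Psme2* reads may have been divided between them. Among the assembly factors the means fell from 117 TPM for *Psmg1* (a chaperone of the alpha ring) to 19.97 for *Psmd9* (a chaperone of the 19S base). The tissue-specific and inducible subunits were lower still, from 25.7 TPM for *Psmb10* and 20.7 for *Psma8* (the spermatocyte form of *Psma7*) to 5.16 for *Psmb9*, 1.10 for *Psmb11* (the thymus subunit) and 0.741 for *Psmb8*.

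**Figure D1:**
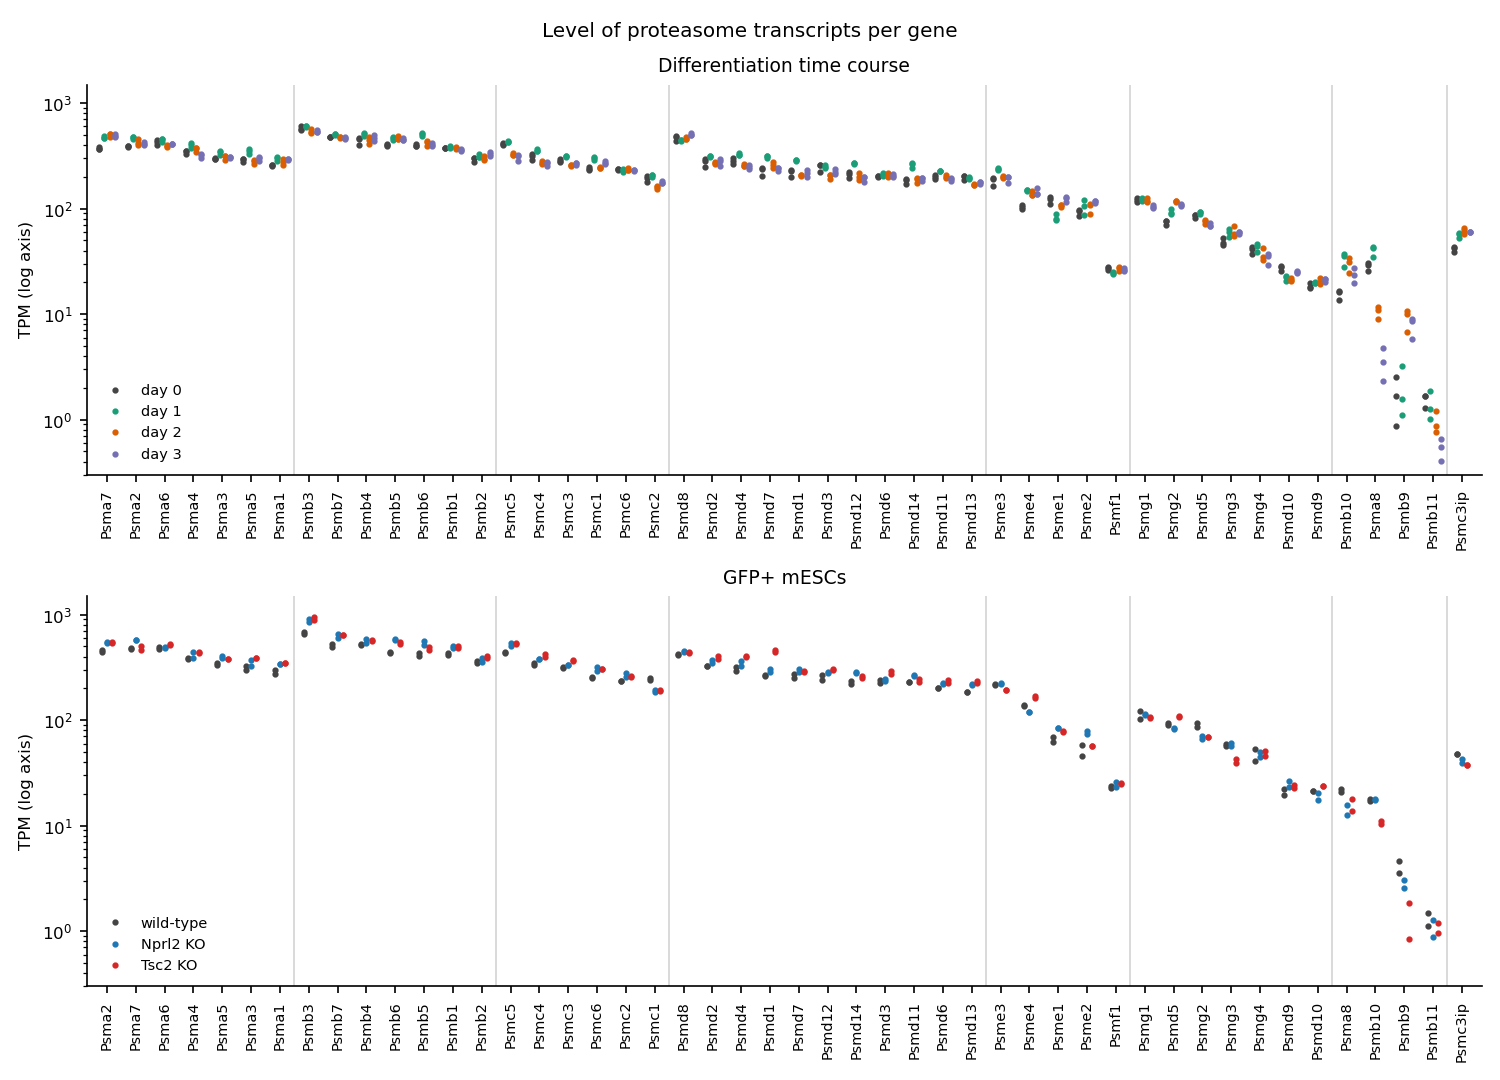
TPM (log axis) of 48 proteasome genes in each library of the time course (top, coloured by day) and of GFP+ mESCs (bottom, coloured by genotype), 1 point per library, ordered within each class by the mean, with *Psmb8* and *Psme2b* left out because some libraries are at 0. Constitutive genes lie between 155 and 941 TPM, and *Psma8* and *Psmb9* spread widely between days.

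Between day 0 and day 1 the constitutive subunits rose together. Of the 48 genes tested 32 were higher at day 1 and 2 were lower (quasi-likelihood test of edgeR, adjusted p under 0.05 by Benjamini-Hochberg over all 14408 genes), where 30.0% of all genes tested were higher and 30.7% lower. Of the 31 constitutive genes 24 were higher, none was lower, 30 had a value above 0, and their median log2 fold change was 0.27, beside a median over all genes of 0.00 (7e-04). In such bulk libraries fewer cells of a type and less RNA per cell cannot be told apart. By class, all 7 alpha genes, 5 of 7 beta genes, 5 of 6 ATPases and 7 of 11 non-ATPase subunits were higher. The calls of *Psma6*, *Psmb2*, *Psmc2* and *Psmc5* were lost with limma on log2(TPM + 1) and log2(TPM + 0.1), and in some fits that left out 1 library. Those of *Psma6* and *Psmc5* were also lost with upper-quartile normalization and without a filter on low counts. The 7 constitutive genes that did not pass were *Psmb1*, *Psmb3*, *Psmc6*, *Psmd3*, *Psmd6*, *Psmd8* and *Psmd13*.

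The largest rises among constitutive genes were in the lid of the 19S particle. *Psmd14*, the deubiquitinase that releases the ubiquitin chain, was at 146, 133 and 150 CPM at day 0 and at 223, 221 and 197 at day 1, a log2 fold change of 0.58 ± 0.07 (adjusted p = 6.5e-07). *Psmd7*, its partner in the lid, was at 197, 166 and 196 CPM and then at 274, 271 and 254, a log2 fold change of 0.52 ± 0.07 (adjusted p = 5.9e-06). For both genes every day 1 library lay above every day 0 library. The scaffold subunit *Psmd1* went from 394, 349 and 409.6 to 531, 519.9 and 520.2 CPM, a log2 fold change of 0.45 ± 0.06 (adjusted p = 3.9e-06). By contrast *Psmd8*, another lid subunit, was at 373, 338 and 369 CPM at day 0 and at 359.9, 358 and 351 at day 1, overlapping ranges with a log2 fold change of -0.01 ± 0.05 (adjusted p = 0.827).

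All 3 catalytic genes rose. *Psmb6* (caspase-like site) went from 197, 189.9 and 191 CPM at day 0 to 270.1, 263 and 246 at day 1, with a log2 fold change of 0.43 ± 0.06 (adjusted p = 3.5e-06). *Psmb5* (chymotrypsin-like site) went from 158, 161 and 156 to 187, 195 and 195 CPM, with 0.28 ± 0.06 (adjusted p = 2.7e-04). *Psmb7* (trypsin-like site) went from 210.3, 212 and 216 to 244, 236 and 235 CPM, with 0.16 ± 0.05 (adjusted p = 0.00778). In each case the day 1 libraries lay above those of day 0.

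Between day 1 and day 2 the constitutive subunits fell together. Of the 48 genes 33 were lower at day 2 and 3 higher by the same edgeR test, where 29.5% of all genes tested were lower and 32.4% higher. All 31 constitutive genes had a value below 0, 27 of them were called lower, none higher, and their median log2 fold change was -0.30, beside 0.02 over all genes. With limma on log2(TPM + 1) that median was -0.19 and the median over all genes was 0.11, and with upper-quartile normalization the 2 medians were -0.22 and 0.10, so the members' values stood below those of all genes on each scale. The share of higher genes among all genes called was 52.3% by edgeR and 63.8% by limma on log2(TPM + 1). Both this comparison and the one before it use the day 1 libraries.

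By class, the ATPases had a median of -0.44, the non-ATPase subunits -0.38, the alpha ring -0.26 and the beta ring -0.21. *Psmd1* went from 531, 519.9 and 520.2 CPM at day 1 to 347, 353 and 344 at day 2, the largest fall among constitutive genes at -0.59 ± 0.06 (adjusted p = 1.3e-07). *Psmd14* returned from 223, 221 and 197 to 148, 151 and 131 CPM, with -0.58 ± 0.07 (adjusted p = 7.9e-07), and overlapped the range of day 0 again. *Psmc5*, the ATPase with the highest level, went from 286, 283 and 278 to 196, 204 and 192 CPM, with -0.52 ± 0.06 (adjusted p = 2.4e-07), below all day 0 libraries (253, 249 and 265). The 4 constitutive genes that did not pass were *Psma7* (-0.05), *Psmb5* (-0.12), *Psmc6* (-0.08) and *Psmd8* (-0.04). The calls of *Psma1*, *Psma4*, *Psmb1*, *Psmb2* and *Psmd6* were lost with limma on log2(TPM + 1) and log2(TPM + 0.1). For *Psmb1*, *Psmb2* and *Psmd6* they were also lost with upper-quartile normalization and in at least 1 fit that left out a library. *Psmb6* and *Psmb7* were lower, at -0.40 ± 0.06 and -0.21 ± 0.05 (log2 fold change ± SE).

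**Figure D2:**
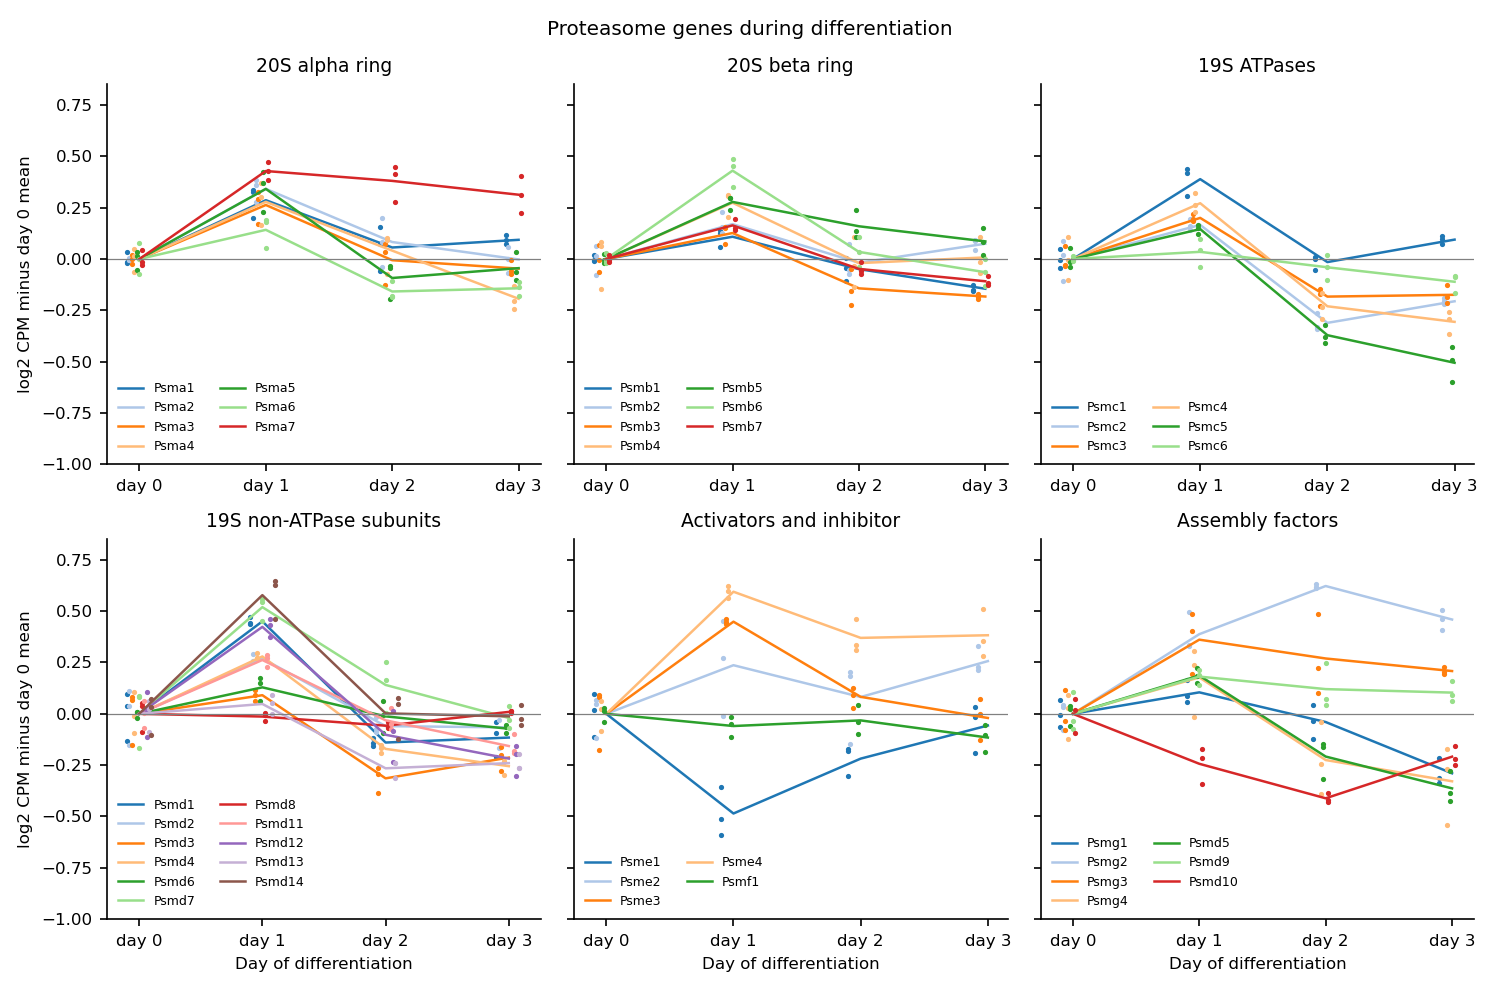
Log2 CPM of each proteasome gene minus its mean at day 0, by class, on days 0 to 3 of differentiation, with lines through the means of 3 libraries and points for the libraries. In the 4 constitutive classes the lines rise to day 1 and fall to day 2, while *Psma7* and *Psmd8* stay near their day 1 value and *Psme1* and *Psmd10* go down at day 1.

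From day 2 to day 3 few members moved. None of the 48 genes was called higher and 3 were lower by edgeR, where 15.7% of all genes tested were higher and 15.5% lower. At an unadjusted p under 0.05, 1 gene was higher and 10 lower, DESeq2 called none higher and 3 lower, and limma on log2(TPM + 1) called 4 higher. The 3 genes were *Psma4* (-0.24 ± 0.07, adjusted p = 0.0105), the assembly chaperone *Psmg1* (-0.25 ± 0.07, adjusted p = 0.00914) and *Psma8*, which is described below. The call of *Psma4* was lost without library 1 of either day and that of *Psmg1* without day 2 library 2. Without day 2 library 3 the number of lower genes was 6, without day 3 library 2 it was 5, and without day 3 library 3 there was 1 higher gene.

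Set against day 0, the constitutive genes ended near or slightly below where they began. At day 3, 18 of the 48 genes were lower than at day 0 and 7 higher, where 35.8% of all genes tested were lower and 34.9% higher, so that the share of lower members was close to the background and that of higher members under it. Of the 31 constitutive genes 13 were lower, 1 was higher, 7 had a value above 0, and the median was -0.11 (-0.01 over all genes). On the TPM scale, limma gave 8 lower and 13 higher genes and a constitutive median of -0.02, and the share of TPM given above was nearly equal on the 2 days. *Psmc5* went from 253, 249 and 265 CPM at day 0 to 169, 189.9 and 182 at day 3, the largest fall of a constitutive gene at -0.50 ± 0.06 (adjusted p = 1.6e-07). Of the other ATPases *Psmc2*, *Psmc3* and *Psmc4* were also lower (*Psmc2* and *Psmc3* not with limma at either pseudocount), and *Psmc1* (0.09) and *Psmc6* (-0.11) did not pass. *Psma7* was the constitutive gene that stayed up, with 162, 161 and 169 CPM at day 0, 228, 221 and 214 at day 1, 224, 219 and 199 at day 2 and 204, 217 and 192 at day 3, and a log2 fold change of 0.31 ± 0.06 (adjusted p = 1.4e-04) between days 3 and 0. Its libraries of days 1 to 3 overlap and all lie above those of day 0. Tested over all 4 days at once, 43 of the 48 genes and 29 of the 31 constitutive genes differed between days, where 88.1% of all genes tested did.

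The activators did not share 1 course. *Psme4*, which caps the core and is known for roles in sperm and in DNA repair, went from 385, 349 and 375 CPM at day 0 to 569, 559 and 547 at day 1, 467, 508 and 459 at day 2 and 527, 472 and 449.5 at day 3. Its log2 fold change was 0.59 ± 0.06 (adjusted p = 1.7e-07) at day 1 and 0.39 ± 0.06 (adjusted p = 2.3e-05) between days 3 and 0, with no overlap between day 0 and any later day. *Psme3* rose at day 1 (0.44 ± 0.07, adjusted p = 1.8e-05) and returned at day 2 (-0.37 ± 0.07, adjusted p = 1.5e-04). In the opposite direction, *Psme1* went from 55.1, 58.1 and 50.3 to 38.2, 42.5 and 36.1 CPM at day 1, a log2 fold change of -0.49 ± 0.08 (adjusted p = 4.9e-05), and back to 48.0, 48.3 and 44.2 at day 2, with 0.26 ± 0.08 (adjusted p = 0.00992), a call lost without day 1 library 3. *Psme2*, the partner of *Psme1* in the same ring, had 35.8, 31.8 and 36.2 CPM at day 0 and 41.6, 47.3 and 34.3 at day 1, ranges that overlap, with 0.25 ± 0.11 (adjusted p = 0.0555). Between days 3 and 0 it differed by 0.26 ± 0.11 (adjusted p = 0.0424), a call that was lost without any of 5 of the 6 libraries compared. *Psmf1* did not pass in any comparison and lay between 45.5 and 53.3 CPM in all time-course libraries.

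Assembly factors also went separate ways. *Psmg2*, which with *Psmg1* builds the alpha ring, rose from 37.8, 35.0 and 38.1 CPM at day 0 to 52.1, 46.5 and 46.7 at day 1 and 56.8, 57.3 and 56.6 at day 2, and was at 50.9, 52.5 and 49.0 at day 3. Its log2 fold change was 0.39 ± 0.07 (adjusted p = 7.6e-05) at day 1 and 0.23 ± 0.07 (adjusted p = 0.00573) from day 1 to day 2, and it was the only assembly factor called higher at day 2. *Psmg3* rose at day 1 (0.37 ± 0.11, adjusted p = 0.00636) and *Psmg4*, its partner, did not pass there (0.18 ± 0.14, adjusted p = 0.285), although *Psmg4* was lower at day 2 (-0.40 ± 0.15, adjusted p = 0.0224). This last call was lost with upper-quartile normalization, with limma at both pseudocounts and without library 1 or 2 of day 1 or library 1 or 3 of day 2. Of the chaperones of the 19S base, *Psmd5* rose at day 1 (0.19 ± 0.06, adjusted p = 0.0150) and fell at day 2 (-0.39 ± 0.06, adjusted p = 2.7e-05), the rise being lost with limma at both pseudocounts and without day 0 library 3 or day 1 library 1. *Psmd9* stayed between 24.1 and 30.1 CPM. *Psmd10* (gankyrin) went from 18.4, 19.9 and 20.6 to 15.5, 17.4 and 16.9 CPM at day 1, with -0.24 ± 0.09 (adjusted p = 0.0284), and with *Psme1* made up the 2 lower genes of that day. That call was lost with DESeq2 and without day 0 library 2 or 3 or day 1 library 1 or 3, each of which left 1 lower gene. *Psmd10* lies on chromosome X, whose 540 genes had a median of 0.13 at day 1, so the gene went against its chromosome. Its value between days 3 and 0 (-0.21 ± 0.09, adjusted p = 0.0477) did not pass under any of the 8 other settings that kept all libraries.

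The inducible and tissue-specific subunits moved most in fold but from low levels. *Psma8* was at 26.2, 25.3 and 22.0 CPM at day 0, 39.7, 31.8 and 37.4 at day 1, 7.68, 9.88 and 8.96 at day 2 and 1.90, 3.91 and 2.79 at day 3. It rose at day 1 (0.57 ± 0.13, adjusted p = 0.00102), then fell at day 2 (-2.04 ± 0.15, adjusted p = 1.6e-09) and at day 3 (-1.63 ± 0.19, adjusted p = 1.2e-05), and its values on days 2 and 3 lay below all those of days 0 and 1. Summed spermatocyte markers were higher at day 1 than at day 0, highest at day 2 and lower again at day 3, with 10.2 to 13.6 CPM at day 0, 14.9 to 17.1 at day 1, 35.6 to 44.6 at day 2 and 24.5 to 30.5 at day 3, and 2 of these 4 markers (*Tnp1* and *Prm1*) had 3 counts or fewer in all of these libraries. Most of the sum was *Sycp3*, while *Sycp1* was at 1.23, 0.928 and 1.10 CPM at day 0, 4.32, 5.09 and 3.91 at day 1, 4.32, 5.17 and 3.04 at day 2 and 0.475, 0.941 and 0.226 at day 3. The libraries are of cultured mESCs, and how these marker genes relate to *Psma8* was not tested. *Psmc3ip*, also known for its part in meiosis, was at 19.4, 17.6 and 19.8 CPM at day 0 and 25.7, 28.3 and 26.9 at day 1, with 0.51 ± 0.09 (adjusted p = 4.1e-05), and stayed at that level.

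Of the immunoproteasome genes, *Psmb10* rose at day 1 and *Psmb9* at day 2. It went from 10.1, 10.01 and 8.50 CPM at day 0 to 23.4, 24.5 and 17.8 at day 1, a log2 fold change of 1.196 ± 0.16 (adjusted p = 2.9e-06), and was at 20.9, 18.9 and 14.5 at day 2 and 11.7, 14.0 and 15.7 at day 3, still above day 0 (0.53 ± 0.16, adjusted p = 0.00686). *Psmb9* was at 0.9, 0.597 and 0.315 CPM at day 0 and 0.596, 1.22 and 0.408 at day 1, which did not differ beyond their spread (0.31 ± 0.47, adjusted p = 0.597), and then at 3.76, 2.36 and 3.43 at day 2 and 2.92, 3.04 and 1.88 at day 3. Its rise from day 1 to day 2 was 2.08 ± 0.36 (adjusted p = 7.2e-05), without overlap, and that between days 3 and 0 was 2.11 ± 0.38 (adjusted p = 7.2e-05). *Psmb8* had no count in any day 0 library, 0.223, 0.456 and 0.0816 CPM at day 1, 0.959, 0.684 and 0.779 at day 2 and 0.611, 0.724 and 0.602 at day 3. Its mean at day 2 was 3.56-fold, and at day 3 2.85-fold, the CPM that a floor of 3 counts in each day 0 library would give. That floor covers counting error at day 0 only. *Psmb11* was lower at day 2 than at day 1 (-0.66 ± 0.27), a call lost under several other settings, and declined from 2.95, 3.84 and 3.86 CPM at day 0 to 1.43, 1.23 and 0.904 at day 3 (-1.57 ± 0.28, adjusted p = 6.7e-05). Even at its peak *Psmb9* reached 10.7 TPM where *Psmb6*, the constitutive subunit it replaces, was never below 390.2 TPM in the time course. Markers of blood and immune cells summed to between 1.81 and 4.73 CPM in these libraries.

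**Figure D3:**
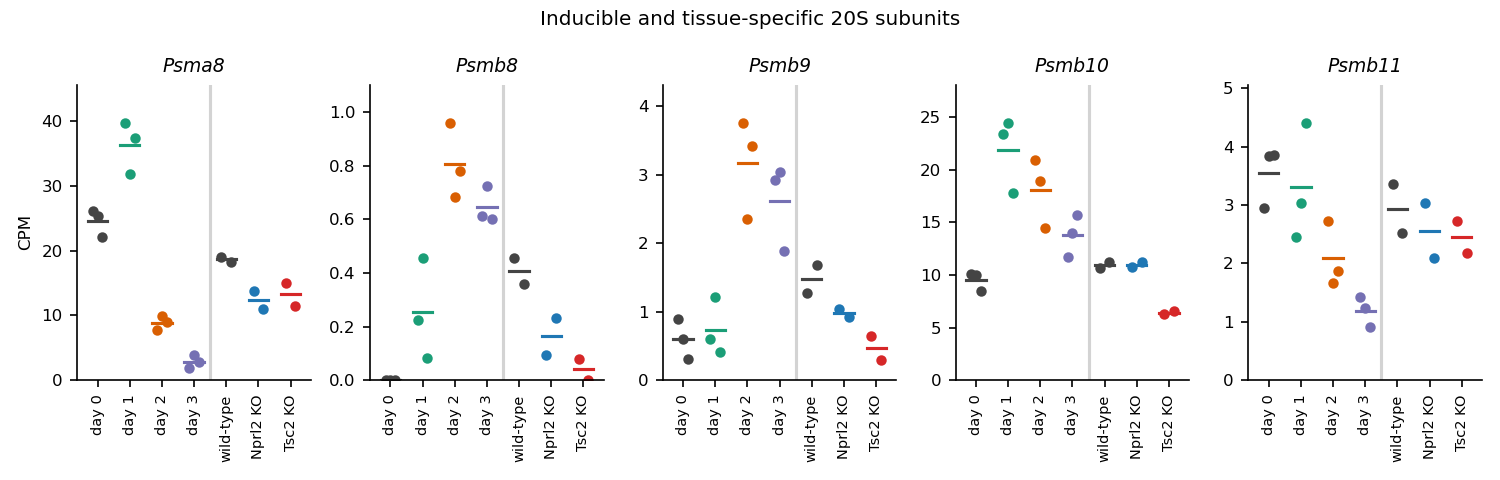
CPM of the 5 inducible and tissue-specific core subunits in each library of the time course and of GFP+ mESCs, with points for libraries and bars for group means, each panel with its own axis from 0. *Psma8* falls to 1.90 to 3.91 CPM at day 3, *Psmb8* is at 0 in the 3 day 0 libraries, and *Psmb10* is lower in both *Tsc2* KO libraries than in the other GFP+ libraries.

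Genes of the same pathway outside the naming rule were read from lists. Of 11 tested factors that bind or build the proteasome, 8 were higher and 1 lower at day 1, and 2 were higher and 7 lower at day 2, with medians of 0.40 and -0.31. Over all genes the shares given above were 30.0% higher and 30.7% lower at day 1, and 32.4% and 29.5% at day 2. *Pomp*, the maturation factor of the beta ring, was 0.40 ± 0.09 at day 1 and -0.24 ± 0.09 at day 2 (log2 fold change ± SE). The largest rises at day 1 were those of the ubiquitin ligase *Ube3c* (0.65 ± 0.07) and the deubiquitinase *Uchl5* (0.58 ± 0.07), both proteasome-bound, and the ubiquitin receptor *Adrm1* fell at day 2 (-0.61 ± 0.06). *Ecpas*, which clamps the core to the 19S particle, rose at day 1 (0.20 ± 0.06) and did not fall afterwards, with 0.99 ± 0.06 at day 2 and 1.46 ± 0.06 between days 3 and 0. Of 9 shuttle and unfoldase genes, 4 were higher and none lower at day 1, and 1 was higher and 7 lower at day 2. *Vcp*, the unfoldase that feeds the proteasome, was 0.63 ± 0.06 and then -0.35 ± 0.06, the shuttle *Ubqln1* 0.68 ± 0.06 and then -0.33 ± 0.06, and the shuttle *Rad23b* was lower at day 2 (-0.48 ± 0.06). Of 6 ubiquitin genes 2 were higher at day 1, led by *Uba6* (0.68 ± 0.07), and 2 lower at day 2, led by *Ubb* (-0.51 ± 0.05), numbers near the shares of all genes.

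Regulators of proteasome genes were read against the same shares and, between days 3 and 0, against 34.9% of all genes higher and 35.8% lower. Among 10 tested, 5 were higher and 1 lower at day 1, 2 were higher and 5 lower at day 2, and 6 were higher and 2 lower between days 3 and 0. *Nfe2l1* was at 238, 229 and 243 CPM at day 0, 285, 286 and 286 at day 1 and 236, 246 and 245 at day 2, with log2 fold changes of 0.27 ± 0.05 (adjusted p = 2.5e-04) and -0.24 ± 0.05 (adjusted p = 7.9e-04). *Ddi2*, the protease that activates the *Nfe2l1* product, was 0.62 ± 0.08 at day 1 and -0.55 ± 0.08 at day 2. The small Maf genes *Mafk* and *Maff*, whose products pair with that of *Nfe2l1*, were 1.25 ± 0.14 and 1.99 ± 0.30 between days 3 and 0. Of 11 antigen processing and interferon genes, the usual companions of the immunoproteasome, 7 were higher and 3 lower at day 2, with a median of 1.11, and 8 were higher and 2 lower between days 3 and 0, beside the shares of all genes just given. *B2m*, the light chain of MHC class I, was -2.06 ± 0.19 at day 1 and 2.38 ± 0.19 at day 2, and the heavy chain *H2-K1* was 2.30 ± 0.22 at day 2 and 3.52 ± 0.23 between days 3 and 0.

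In GFP+ mESCs of *Nprl2* KO, 12 of the 31 constitutive subunits were modestly higher than in wild-type. Of 48 genes 13 were higher and 2 lower by edgeR, where 2.76% of all 13751 genes tested were higher and 3.62% lower. Among the 31 constitutive genes 12 were higher, 1 was lower and 30 had a value above 0, with a median log2 fold change of 0.20 beside 0.00 (8e-04) over all genes. As a share of all TPM, the 31 genes held 1.08% ± 0.0210 in wild-type, 1.24% ± 0.0115 in the *Nprl2* KO and 1.27% ± 0.00668 in the *Tsc2* KO (SD, n = 2). TPM was not computed alike in all libraries. The quantification tool kallisto subtracted 227.87 bases from long transcripts in *Nprl2* KO library 1 and 169.58 to 183.92 in the other GFP+ libraries. The share was 1.233% in *Nprl2* KO library 1 and 1.249% in library 2. The number of higher genes was sensitive to single libraries: it was 4 and 2 without wild-type library 1 or 2, and 6 and 3 without *Nprl2* KO library 1 or 2, with 1 lower gene in each case.

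In *Nprl2* KO 4 of 7 beta ring genes were higher. *Psmb6* was at 211 and 217 CPM in wild-type and 273 and 290.0 in *Nprl2* KO, with 0.40 ± 0.06 (adjusted p = 0.00329). *Psmb3* was at 206 and 216 CPM against 268 and 272 in the KO, with 0.36 ± 0.06 (adjusted p = 0.00652). *Psmb5* was at 170.1 and 161 CPM against 216 and 205 in the KO, with 0.34 ± 0.07 (adjusted p = 0.0116). The KO libraries of these 3 genes lay above both wild-type libraries, as did those of *Psmb7* (0.29 ± 0.07, adjusted p = 0.0309) and *Psmd14* (0.34 ± 0.06, adjusted p = 0.00916). *Psmb6* was also called in all 4 fits that left out 1 library and *Psmb3* in 3 of them, being lost without wild-type library 1. *Psmb5* was lost without wild-type library 2 or *Nprl2* KO library 1, *Psmd14* without library 2 of either genotype, and *Psmb7* in 3 of the 4 fits (all but that without *Nprl2* KO library 1) and with the 2 groups alone. The alpha ring had 3 of 7 genes higher, the ATPases 2 of 6 and the non-ATPase subunits 3 of 11. All alpha ring calls, and those of *Psmd11* and *Psmd13*, were lost whenever a library was left out. The calls of *Psmc5* and *Psmc6* were lost without either wild-type library or *Nprl2* KO library 2. *Psmd11* and *Psmd13* were also lost with DESeq2, with limma at both pseudocounts and with the 2 groups alone.

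In *Tsc2* KO 17 of the 31 constitutive subunits were higher, within a larger set of changed genes. Of 48 genes 18 were above wild-type and 8 below it, where 14.9% of all genes tested were higher and 14.1% lower. Among the 31 constitutive genes 17 were higher, 1 was lower and 29 had a value above 0, with a median of 0.19 beside 0.01 over all genes. Both KOs were compared with the same wild-type libraries. Without wild-type library 1 or 2 the number of higher genes was 6 and 5, and without *Tsc2* KO library 1 or 2 it was 8 and 4, while the number of lower genes was 3, 4, 5 and 3 in the same order.

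*Psmd1* differed most among constitutive genes in *Tsc2* KO, with 459 and 462 CPM in wild-type, 510.0 and 551 in the *Nprl2* KO and 757 and 772 in the *Tsc2* KO, and a log2 fold change of 0.73 ± 0.06 (adjusted p = 7.2e-06) against wild-type and 0.53 ± 0.06 (adjusted p = 5.1e-05) against *Nprl2* KO. It lies on chromosome 1, where the median over 744 genes was 0.37 in *Tsc2* KO and -0.01 in *Nprl2* KO, and the part of this shift in the gene's value was not tested. The other constitutive subunits lie on other chromosomes, of which chromosome 12 had a median of -0.12 in *Tsc2* KO and the rest medians within 0.10 of 0. *Psmb3* was at 273 and 284 CPM, with 0.40 ± 0.06 (adjusted p = 5.6e-04), and *Psmd4*, a ubiquitin receptor, was at 209 and 195 CPM in wild-type and 262 and 251 in *Tsc2* KO, with 0.34 ± 0.07 (adjusted p = 0.00285). *Psmb6* (0.25 ± 0.06, adjusted p = 0.0109) and *Psmb7* (0.27 ± 0.07, adjusted p = 0.0125) were higher as well, the first call being lost without wild-type library 1 or *Tsc2* KO library 2 and the second without wild-type library 2 or either *Tsc2* KO library, and *Psmb5* did not pass (0.13 ± 0.07, adjusted p = 0.178).

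*Psmc1*, an ATPase of the 19S base, was the constitutive gene called lower in both KOs. It was at 188 and 183 CPM in wild-type, 140.0 and 148 in the *Nprl2* KO and 139 and 141 in the *Tsc2* KO. The log2 fold changes were -0.36 ± 0.07 (adjusted p = 0.00729) and -0.40 ± 0.07 (adjusted p = 7.5e-04), no KO library reached the wild-type range, and both calls held in all 4 fits that left out 1 library. The gene lies on chromosome 12, with the median of -0.12 in *Tsc2* KO given above and of -0.06 in *Nprl2* KO. *Psma3* and *Psma6* lie on the same chromosome and had values above 0, at 0.17 and 0.02 without *Nprl2* and at 0.25 and 0.05 without *Tsc2*. During differentiation the same gene moved with its class, from 186, 174 and 179.5 CPM at day 0 to 244, 241 and 223 at day 1 and 180.0, 181 and 173 at day 2.

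**Figure D4:**
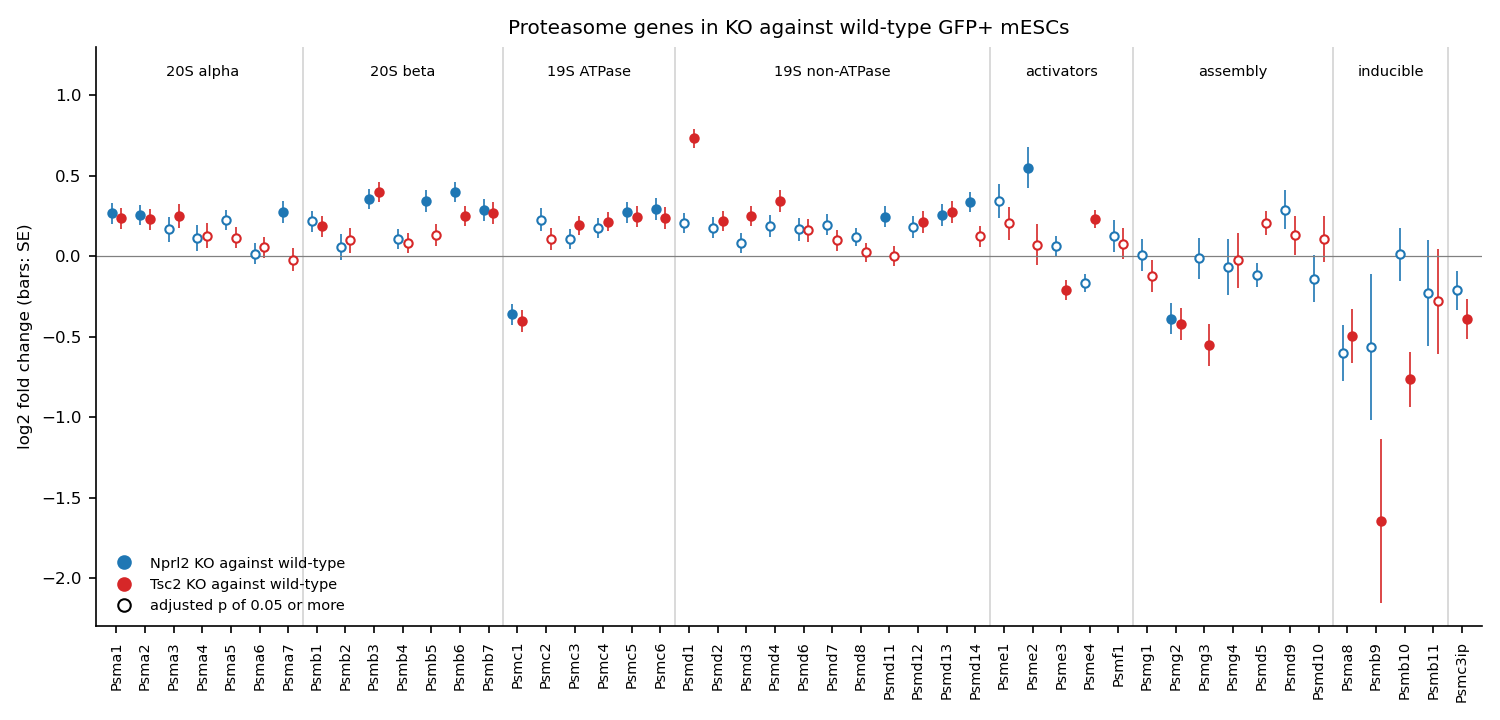
Log2 fold change against wild-type, with SE, of 48 proteasome genes in *Nprl2* KO (blue) and *Tsc2* KO (red) GFP+ mESCs, with filled points for an adjusted p under 0.05. Nearly all constitutive genes lie above 0 in both KOs, *Psmc1* lies below 0 in both, and *Psmd1* stands out in *Tsc2* KO.

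Compared directly, the KOs differed in few constitutive genes. With *Nprl2* KO as the reference, *Tsc2* KO had 3 of 48 genes higher and 8 lower, where 17.5% of all genes tested were higher and 16.5% lower, so that the shares of members were under the background or close to it. The 31 constitutive genes had a median of -0.03, which was 0.03 with limma on log2(TPM + 1), and 1 was higher (*Psmd1*) and 4 were lower. The share of higher genes among all genes called was 51.4% by edgeR and 61.7% by limma on log2(TPM + 1). *Psma7* was at 209.6 and 211 CPM in wild-type, 249 and 259 in the *Nprl2* KO and 219 and 195 in the *Tsc2* KO, a difference between the KOs of -0.29 ± 0.07 (adjusted p = 0.00614). *Psmb5* (-0.21 ± 0.07, adjusted p = 0.0287), *Psmd11* (-0.24 ± 0.06, adjusted p = 0.0105) and *Psmd14* (-0.21 ± 0.06, adjusted p = 0.0213) were likewise lower in *Tsc2* KO. The calls of *Psmb5* and *Psmd14* were lost with DESeq2 and with limma at both pseudocounts. Among the fits that left out 1 library, *Psma7* was lost without *Tsc2* KO library 2, *Psmb5* without *Nprl2* KO library 1 or *Tsc2* KO library 2, *Psmd11* without *Nprl2* KO library 2 or *Tsc2* KO library 1, and *Psmd14* without *Nprl2* KO library 2 or either *Tsc2* KO library. Without *Nprl2* KO library 2 or *Tsc2* KO library 1 the number of lower genes was 5, and without *Tsc2* KO library 2 it was 4.

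Of the 11 genes that differed between the KOs, 3 were activators. *Psme4* was at 489.6 and 491 CPM in wild-type, 443 and 431 in the *Nprl2* KO and 571 and 581 in the *Tsc2* KO, so wild-type lay between the KOs, and the difference between them was 0.40 ± 0.06 (adjusted p = 2.5e-04). *Psme3* was lower in *Tsc2* KO, with 264 and 258 CPM against 296 and 308 in wild-type (-0.21 ± 0.06, adjusted p = 0.0216), a call lost whenever a library was left out. *Psme2* was at 23.6 and 18.9 CPM in wild-type, 31.8 and 31.0 in the *Nprl2* KO and 22.6 and 22.4 in the *Tsc2* KO, a log2 fold change of 0.55 ± 0.13 (adjusted p = 0.0235) in *Nprl2* KO against wild-type and of -0.48 ± 0.12 (adjusted p = 0.00987) in *Tsc2* KO against *Nprl2* KO. The first call was lost with DESeq2 and without wild-type library 2 or either *Nprl2* KO library, and the second without *Nprl2* KO library 1 or *Tsc2* KO library 2. In GFP+ wild-type cells 98.1% of the TPM of *Psme2* was given to the longer of its 2 transcripts. At day 0 of the time course, a separate experiment, the share was 35.9%. The 2 experiments were not quantified alike. The length that kallisto subtracted from long transcripts was 179 bases in the time course and 169.58 to 227.87 in GFP+ libraries. The part of this in the 2 shares was not tested. *Psme1* did not pass in *Nprl2* KO (0.34 ± 0.10, adjusted p = 0.0742), and *Psmf1* lay between 42.8 and 50.9 CPM in all 6 libraries.

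Among the assembly factors *Psmg2* was lower in both KOs, with 46.3 and 43.1 CPM in wild-type, 35.0 and 33.5 in the *Nprl2* KO and 34.0 and 33.0 in the *Tsc2* KO. Its log2 fold changes were -0.39 ± 0.10 (adjusted p = 0.0379) and -0.42 ± 0.10 (adjusted p = 0.00725), and the first was lost whenever a library was left out and with DESeq2, the second without wild-type library 1 or *Tsc2* KO library 2. *Psmg3* was lower in *Tsc2* KO alone by its values, at 14.5 and 15.4 CPM against 21.3 and 22.6 in wild-type and 20.4 and 23.1 in *Nprl2* KO, and the direct difference between the KOs was -0.54 ± 0.13 (adjusted p = 0.00646), which was lost without *Nprl2* KO library 2 or *Tsc2* KO library 1. *Psmd5* was higher in *Tsc2* KO than in *Nprl2* KO (0.32 ± 0.07, adjusted p = 0.00458), with wild-type between them. *Psmg1*, *Psmg4*, *Psmd9* and *Psmd10* did not pass in these comparisons.

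**Figure D5:**
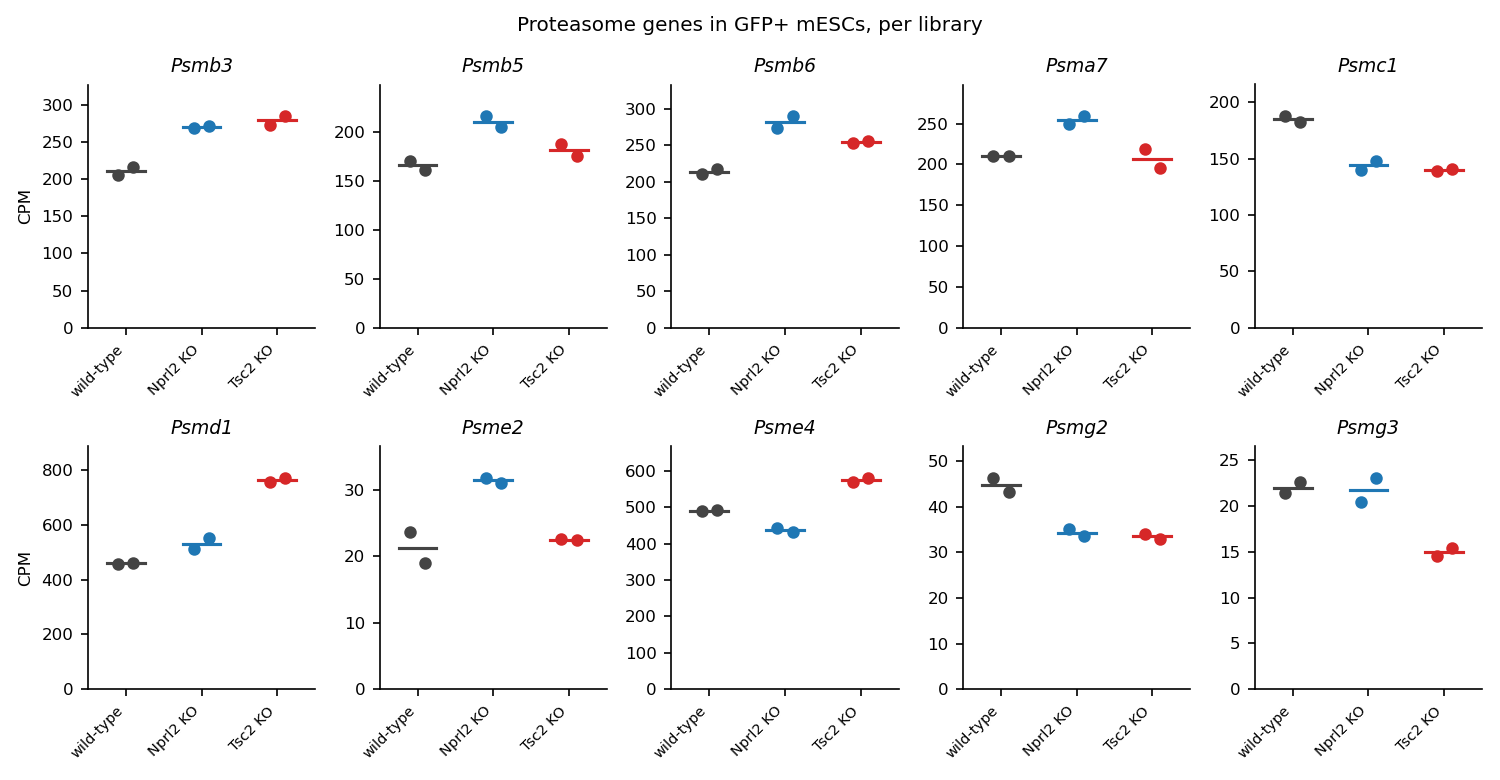
CPM of 10 proteasome genes in each GFP+ library by genotype, with points for the 2 libraries and bars for their mean, each panel with its own axis from 0. *Psmb3* and *Psmb6* are higher and *Psmc1* and *Psmg2* lower in both KOs than in wild-type, *Psmd1* and *Psme4* are highest in *Tsc2* KO, and *Psme2* is highest in *Nprl2* KO.

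The immunoproteasome genes *Psmb10* and *Psmb9* were lower in *Tsc2* KO. *Psmb10* was at 10.6 and 11.3 CPM in wild-type, 10.8 and 11.2 in the *Nprl2* KO and 6.25 and 6.59 in the *Tsc2* KO, with -0.77 ± 0.17 (adjusted p = 0.00532) against wild-type and -0.78 ± 0.17 (adjusted p = 0.00347) against *Nprl2* KO. *Psmb9* was at 1.27 and 1.68 CPM in wild-type, 1.04 and 0.929 in the *Nprl2* KO and 0.641 and 0.290 in the *Tsc2* KO, with -1.64 ± 0.51 (adjusted p = 0.0298) against wild-type, a call that was lost with DESeq2 and without either wild-type library or *Tsc2* KO library 2. *Psmb8* was at 5 counts or fewer in every GFP+ library. *Psma8* was lower in *Tsc2* KO (-0.50 ± 0.17, adjusted p = 0.0449), with 15.1 and 11.4 CPM against 19.1 and 18.2, and did not pass in *Nprl2* KO (-0.60 ± 0.17, adjusted p = 0.0597), where it was at 13.7 and 10.99. The call in *Tsc2* KO was lost with DESeq2, with limma at both pseudocounts and without either wild-type library or *Tsc2* KO library 2. Of 10 antigen processing and interferon genes tested, 1 was higher (*B2m*, 1.27 ± 0.14) and 2 lower against wild-type in *Tsc2* KO, among them *Irf1* at -1.19 ± 0.15, and 1 was higher and 6 lower than in *Nprl2* KO. The first counts were near the 14.9% and 14.1% of all genes, and the second stand beside 17.5% higher and 16.5% lower. The feeder markers given above moved in the same direction in 1 of the 2 *Tsc2* KO libraries (73.7 CPM), in which *Psmb10* was at 6.59 CPM against 6.25 in the other. Their part in these values, and that of the markers of the stem cell state, was not tested.

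Other genes of the pathway were read from the same lists, beside the shares of all genes, which were 2.76% higher and 3.62% lower for *Nprl2* KO and 14.9% higher and 14.1% lower for *Tsc2* KO. Of 11 factors that bind or build the proteasome, 2 were higher in *Nprl2* KO, with *Adrm1* at 0.26 ± 0.06 and *Txnl1*, a thioredoxin of the 19S particle, at 0.24 ± 0.06. In *Tsc2* KO 3 were higher, with *Ecpas* at 0.46 ± 0.09 and *Uchl5* at 0.37 ± 0.09, and none was lower in either KO. *Pomp* did not pass in either (0.05 and -0.05), nor did *Nfe2l1* (0.11 and 0.15). Of 9 shuttle and unfoldase genes 2 were higher in *Nprl2* KO, *Vcp* (0.36 ± 0.06) and its cofactor *Ufd1* (0.34 ± 0.09), and in *Tsc2* KO 2 were higher and 1 lower, among them *Ufd1* (0.30 ± 0.09) and *Ubqln2* (-0.29 ± 0.08). Of 10 regulators 3 were higher in *Tsc2* KO, with *Nfe2l2*, the relative of *Nfe2l1* in oxidative stress, at 0.70 ± 0.09 and the repressor *Bach1* at 0.31 ± 0.08. Of 6 ubiquitin genes *Ubb* was higher and *Uba6* lower in *Tsc2* KO (0.20 ± 0.06 and -0.24 ± 0.08).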

How the data were processed

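RNA-seq was analysed for 12 libraries of a differentiation time course and 6 libraries of sorted GFP+ mESCs. The authors quantified reads with kallisto 0.42.1 on mm10 transcripts, per the labels, and deposited estimated counts and TPM per transcript. Columns of their DESeq2 comparisons were not used. Estimated counts of 34079 transcripts were summed to 24354 genes by RefSeq and GENCODE symbols (174 transcripts had none), and were rounded. edgeR 4.0.16 (R 4.3.3) was run per experiment on all libraries with TMM normalization, its filter on low counts and the quasi-likelihood test. Benjamini-Hochberg adjustment was over 13751 genes (GFP+) or 14408 genes (time course), with a threshold of 0.05. The edgeR fit was also tried on simulated counts, for the first comparison of each experiment. Members and lists were chosen with earlier results of these data known. Named with values were catalytic and inducible subunits, activators, assembly factors, the 5 largest called changes per comparison, the highest and lowest genes by TPM of each class, genes against their class, and from each list *Nfe2l1*, *Pomp* and the 2 largest called changes in the comparisons described. *Psmd4* and the constitutive subunits named outside this rule were chosen after their values were seen. Alternatives were DESeq2 1.42.0, limma 3.58.1 on log2(TPM + 1) or log2(TPM + 0.1), upper-quartile normalization, other filters, 2 groups alone, a replicate block and leaving out each library. Replicates differed by more than sampling noise. kallisto divides reads between near-identical transcripts. Count floors of 3 counts cover counting error only.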

Additional observations from a re-analysis of the deposited data

Results flagged for a closer look

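For 11 genes the effect of *Tsc2* KO differed from that of *Nprl2* KO by edgeR's direct test of the KOs against each other. Of 48 genes 3 were higher and 8 lower, where 17.5% of all genes tested were higher and 16.5% lower. Shares of members were thus under the background or close to it. Calls that depended on the setting or on 1 library are named above. The effect of *Tsc2* KO minus that of *Nprl2* KO, on the log2 scale, was -0.78 for *Psmb10*, -0.54 for *Psmg3*, -0.48 for *Psme2*, -0.29 for *Psma7*, -0.27 for *Psme3*, -0.24 for *Psmd11*, -0.21 for *Psmd14* and -0.21 for *Psmb5*. It was 0.32 for *Psmd5*, 0.40 for *Psme4* and 0.53 for *Psmd1*, which lies on chromosome 1 with its median of 0.36 in this comparison. With 2 or 3 libraries per group no library was tested for standing apart.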

How the results depend on the processing

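For *Nprl2* KO against wild-type, the number of higher genes (13) was 7 with DESeq2, 8 with the 2 groups alone and 2 to 6 when a library was left out. The number of lower genes (2) was 1 with DESeq2, with the 2 groups alone and without any 1 library, and the constitutive median ranged from 0.16 to 0.25 without 1 library. For *Tsc2* KO against wild-type, 4 to 8 genes were higher and 3 to 5 lower without 1 library, 5 were lower with DESeq2, and the constitutive median was 0.19 with upper-quartile normalization, 0.20 without a filter, 0.19 with at least 10 counts in every library, 0.18 with DESeq2, 0.23 with limma on log2(TPM + 1) and on log2(TPM + 0.1), 0.18 with the 2 groups alone and 0.18 to 0.19 without 1 library. For *Tsc2* KO against *Nprl2* KO, 4 to 6 genes were lower without 1 library, and the median was 0.0276 with limma on log2(TPM + 1) and 0.0277 on log2(TPM + 0.1), and -0.0707 to 0.0261 without 1 library. At day 1, 1 gene was lower with DESeq2 and 1 to 2 without 1 library, and the median was 0.20 with limma at both pseudocounts. At day 2 the median was -0.22 with upper-quartile normalization and -0.19 with limma at both. From day 2 to day 3, limma called 4 (pseudocount 1) and 3 (pseudocount 0.1) genes higher, 0 to 1 were higher without 1 library, 7 were lower with upper-quartile normalization and 2 to 6 without 1 library. Between days 3 and 0, 11 genes were higher with upper-quartile normalization and 13 with limma, which at both pseudocounts called 8 lower with a median of -0.0227. The cause of these shifts was not tested, but a fit without 1 library has fewer samples. The constitutive median of *Tsc2* KO against *Nprl2* KO, which has no test, changed sign under limma, without *Nprl2* KO library 2 and, at 5.3e-04, without *Tsc2* KO library 2.

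Whether replicate numbers pair the libraries was not settled. Deviations of same-numbered GFP+ libraries correlated at 0.0867 to 0.165. With 2 libraries per genotype the correlations of unlike numbers only mirror these, so they cannot decide the question. Correlations of same-numbered time-course libraries were partly negative. With the replicate block 23 genes were higher in *Nprl2* KO and 5 in *Tsc2* KO against *Nprl2* KO, and no other count moved by more than 1.5 times. Low counts limit *Psmb8*, *Psmb9*, *Psmb11* and *Psme2b*.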
